A study of Homo sapiens with 6 samples.

Results

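The ATP-binding cassette (ABC) transporters were followed in RKO cells, a colorectal cancer cell line, that carried either extra connexin 43 or an empty vector. Members were the genes of the deposited gene table whose symbol was ABC, a subfamily letter from A to G and a number, together with CFTR, the chloride channel of the same family. This gave 52 entries for 46 symbols, of 63563 genes in all. The difference in number came from ABCF1, which had 7 entries.

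OVER43 cells were RKO cells stably transfected with pcDNA3.1 carrying the cDNA of connexin 43 (Cx43, gene GJA1), a gap junction protein, and there were 3 libraries of them. EV cells were RKO cells with the empty pcDNA3.1 vector, also with 3 libraries, and their genotype was labelled WT. All 6 libraries were made from poly(A) RNA of cells grown in the same serum-containing medium. The labels do not say whether the replicates were separate cultures or clones. Every p-value here therefore describes the variation among 6 libraries alone, and that variation may be technical.

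ABC proteins bind and hydrolyse ATP at a pair of nucleotide-binding domains. In most of them this drives the movement of a substrate through a membrane-spanning part: lipids and sterols in subfamilies A and G, haem, peptides and drugs in subfamily B, conjugated anions and drugs in subfamily C, and acyl-CoA or vitamin B12 in subfamily D. Members of subfamilies E and F have the nucleotide-binding domains but no membrane-spanning part, and act on ribosomes and translation. In colorectal cancer the family is best known for drug efflux by ABCB1 (P-glycoprotein), ABCC1 (MRP1) and ABCG2 (BCRP).

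The stretch of 250 bases before an annotated start was read from RefSeq (GRCh38.p14) for 35 of the 46 symbols, 52 starts in all, and 5 are printed because the results below turn on their genes. ABCA1 and ABCA2 are lipid transporters with lower values in OVER43 cells than in EV cells, and ABCE1, ABCF2 and ABCF3 are the ribosome and translation members that were higher. Each is written 5′ to 3′ on the strand of its gene, in lower case, with motif matches on either strand in capitals. The motifs searched were the GC box GGGCGG, the CCAAT box CCAAT, the E-box CACGTG, the cyclic AMP response element TGACGTCA, and TGACCNNNNNTAACC, the paired element through which oxysterol-sensing receptors are known to act on ABCA1. The GC box motif overlaps itself in ABCA2.
ABCA1: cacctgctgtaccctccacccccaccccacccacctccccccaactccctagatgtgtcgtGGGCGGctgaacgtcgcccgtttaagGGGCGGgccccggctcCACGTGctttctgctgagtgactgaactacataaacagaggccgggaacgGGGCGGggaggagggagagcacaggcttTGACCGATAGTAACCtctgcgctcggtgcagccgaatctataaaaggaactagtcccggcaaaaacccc
ABCA2: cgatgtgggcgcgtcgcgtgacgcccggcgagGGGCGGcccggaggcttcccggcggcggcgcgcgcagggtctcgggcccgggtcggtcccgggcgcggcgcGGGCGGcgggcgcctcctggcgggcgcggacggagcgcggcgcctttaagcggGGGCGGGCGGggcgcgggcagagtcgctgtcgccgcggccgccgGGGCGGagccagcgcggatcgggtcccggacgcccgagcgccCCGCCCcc
ABCE1: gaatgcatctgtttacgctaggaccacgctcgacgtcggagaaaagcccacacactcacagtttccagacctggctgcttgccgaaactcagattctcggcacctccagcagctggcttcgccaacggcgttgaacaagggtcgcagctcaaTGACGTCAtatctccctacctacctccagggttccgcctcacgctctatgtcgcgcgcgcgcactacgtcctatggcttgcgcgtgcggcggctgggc
ABCF2: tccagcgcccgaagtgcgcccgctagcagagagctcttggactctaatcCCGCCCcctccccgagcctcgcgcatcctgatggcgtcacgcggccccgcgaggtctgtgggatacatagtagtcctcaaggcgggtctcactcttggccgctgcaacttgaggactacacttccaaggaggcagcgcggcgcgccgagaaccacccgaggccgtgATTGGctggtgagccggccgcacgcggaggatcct
ABCF3: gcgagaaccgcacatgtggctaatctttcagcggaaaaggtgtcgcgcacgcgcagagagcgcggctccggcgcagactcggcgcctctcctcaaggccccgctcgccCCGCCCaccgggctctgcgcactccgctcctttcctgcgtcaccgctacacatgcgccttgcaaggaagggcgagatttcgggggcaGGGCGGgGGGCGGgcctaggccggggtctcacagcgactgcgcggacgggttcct
They lie at chr9:104928156-104928405 (minus strand, ABCA1), chr9:137028238-137028487 (minus strand, ABCA2, which has more than 1 start in the table), chr4:145098061-145098310 (plus strand, ABCE1), chr7:151227206-151227455 (minus strand, ABCF2) and chr3:184185949-184186198 (plus strand, ABCF3). The paired oxysterol element was in the ABCA1 stretch alone among the 52 member stretches, and in 17 of 35116 stretches of all genes (0.0484%). Its letters were taken from what is known of ABCA1, so the match is no finding. The ABCA2 stretch was 85.6% G and C with 54 CpG pairs, against medians of 58% and 11 over all stretches. It held 6 matches to the GC box, which 42.6% of all stretches hold. The ABCE1 stretch was the only member stretch with the cyclic AMP response element, which 1.65% of all stretches hold. The CCAAT box of the ABCF2 stretch is found in 32% of all stretches, and the E-box of the ABCA1 stretch in 6.34%. A match is a run of letters in this window and does not show that a factor binds there.

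The values were FPKM, fragments per kilobase of transcript and per fixed number of mapped fragments, as the authors' program scaled them between libraries. Low values stepped in whole fragments. On the scale of these values, this put the depth at about 49200000, 47700000 and 46800000 fragments in the OVER43 libraries. In the EV libraries it was about 52000000, 42400000 and 46800000 fragments. These depths include the scaling between libraries and need not be the numbers of fragments sequenced. GJA1 stood at 24.7 ± 1.44 FPKM in OVER43 libraries and 0.348 ± 0.0469 FPKM in EV libraries (SD, n = 3 each), so the libraries matched their labels. Of 11 colon epithelial markers 4 passed the expression filter, EPCAM, KRT8, KRT18 and CDX2, and the markers KRT20, CDX1, VIL1, LGR5, MUC2, CDH1 and KRT19 were below 1 FPKM in every library. The summed level of the 11 was 199 to 204 FPKM in OVER43 libraries and 156 to 163 FPKM in EV libraries, and a part of this in the results below was not tested. The markers did not move together: KRT18 averaged 148 FPKM in OVER43 libraries against 79.4 FPKM in EV libraries and EPCAM 20.5 against 12.5, while KRT8 averaged 24.6 FPKM in OVER43 libraries against 58.7 FPKM in EV libraries and CDX2 6.21 against 7.78. None of 7 fibroblast, 5 leukocyte or 4 endothelial markers passed the filter, and the highest value of any of them was 0.658 FPKM.

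A gene was tested when 3 or more of the 6 libraries reached 1 FPKM, and called changed when its adjusted p was under 0.05. The p came from limma on log2(FPKM + 1), adjusted by Benjamini-Hochberg over all 12205 tested genes. All log2 fold changes below are OVER43 over EV on that scale, which understates the change of genes at low FPKM. Of the 52 member entries 20 passed the filter, and 9 of the 20 were called (45%), against 45.9% of all tested genes. Of these, 6 were higher in OVER43 cells (28.4% of all tested genes were), and 3 were lower (17.5% of all tested genes were). The share called was thus close to that over all genes. Of all calls 61.8% were higher, and with libraries set to equal FPKM sums 34.4% were, the members then counting 6 higher and 5 lower. The median log2 fold change of the 20 was 0.12, against 0.05 over all tested genes, and the median size regardless of sign was 0.21 in both. Among the 20, OVER43 libraries lay wholly above EV libraries in 9 genes and wholly below in 4, so that 13 did not overlap, where 56.3% of all tested genes did not overlap. In bulk RNA, fewer cells that express a gene and less RNA per cell cannot be told apart.

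**Figure D1:**
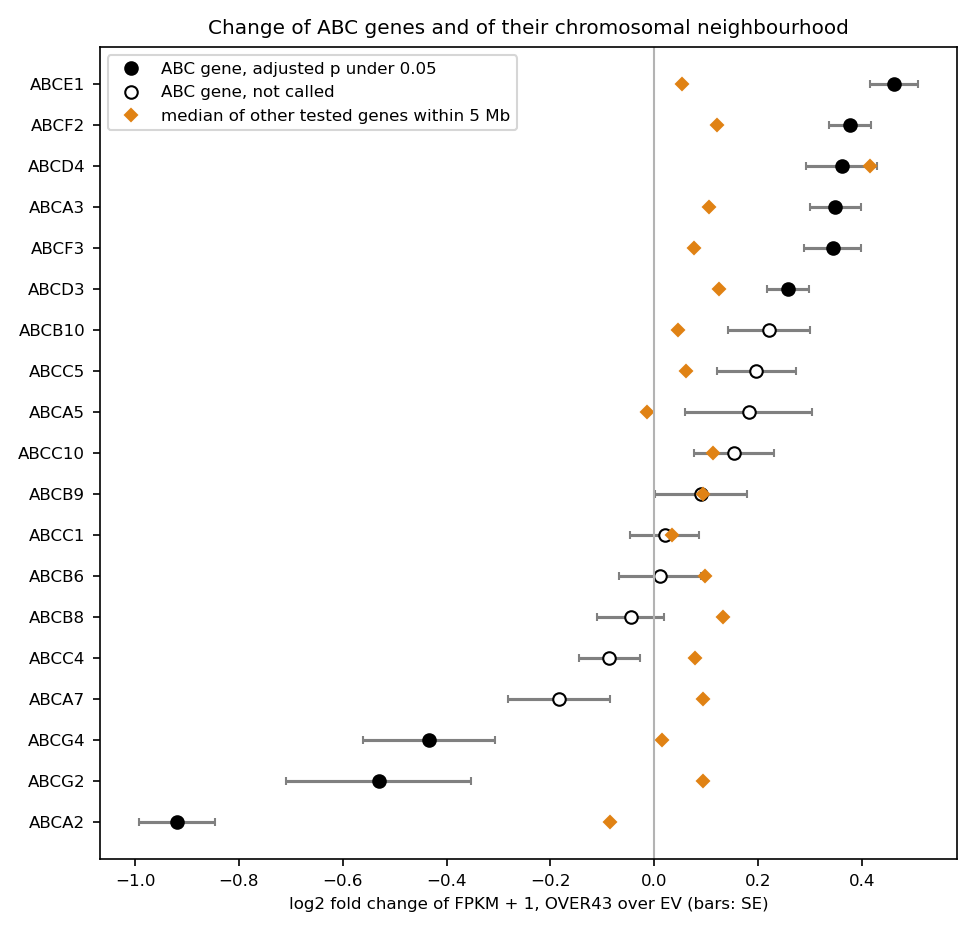
Log2 fold change of OVER43 over EV (horizontal axis, log2(FPKM + 1) scale) of 19 of the tested ABC members, ordered by value, with bars of 1 standard error, filled where called, and a diamond at the median of the other tested genes within 5 Mb. ABCA2 at -0.92 stands apart from the median of -0.09 of its neighbours, of which 28 of 74 were lower and 6 higher. ABCD4 at 0.36 lies by the median of 0.42 of its neighbours.

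By subfamily, the called members were 1 higher and 1 lower of 4 tested in A, 0 of 5 in B, 0 of 4 in C, 2 higher of 2 in D, 1 higher of 1 in E, 2 higher of 2 in F and 2 lower of 2 in G. In subfamilies E and F all 3 tested members were higher in OVER43 cells, also after TMM, quantile or equal-sum rescaling of the libraries. In the membrane transporters, subfamilies A, B, C, D and G, 3 of 17 were higher and 3 were lower, a median of 0.08. Over all tested genes 28.4% were higher and 17.5% lower. The counts by subfamily rest on few genes, and a difference between subfamilies was not tested.

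In OVER43 cells the levels ran from ABCF2 at 88.9 FPKM and ABCE1 at 81.2 FPKM down to ABCG2 at 1.15 FPKM and ABCG4 at 0.932 FPKM. ABCD3, a peroxisomal transporter, was the next at 34.8 FPKM, followed by ABCD4 at 24.6 FPKM, ABCA3 at 24.0 FPKM and ABCF3 at 22.8 FPKM. Neighbours in this order whose OVER43 libraries overlapped included ABCD4 and ABCA3, ABCA2 and ABCB8, ABCC10 and ABCB9, ABCA7 and ABCA5, and ABCG2 and ABCG4. ABCA2 stood just above ABCB8 in OVER43 cells at 15.0 FPKM, while its EV mean of 29.3 FPKM was exceeded in EV cells by ABCF2 and ABCE1 alone. The EV libraries of ABCD3, at 28.7 to 29.3 FPKM, lay within those of ABCA2, at 27.6 to 30.8 FPKM. FPKM is per length, so these levels can be set side by side.

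**Figure D2:**
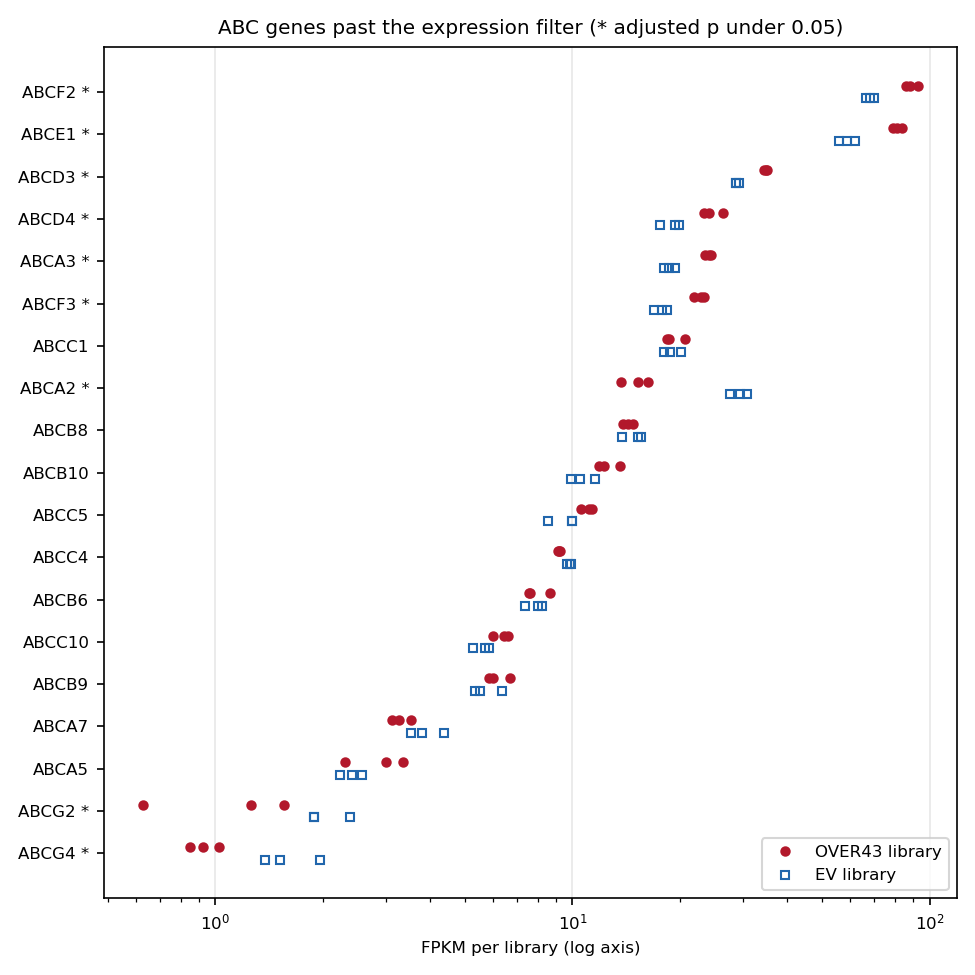
FPKM per library (log axis) of 19 of the tested ABC members in order of their OVER43 mean, with OVER43 libraries as filled circles above EV libraries as open squares and an asterisk where adjusted p was under 0.05. ABCF2 and ABCE1 lie above all other members in both groups, and ABCA2 is the member whose groups lie farthest apart.

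ABCA2, a transporter of late endosomes and lysosomes with a known part in cholesterol and sphingolipid handling, had the largest change among the 20 members that passed the filter. It had 15.2, 13.6 and 16.2 FPKM in OVER43 libraries, against 27.6, 30.8 and 29.5 FPKM in EV libraries. Every OVER43 library lay far below the lowest EV library, and the spread within each group was small beside the gap. The means were 15.0 ± 1.32 and 29.3 ± 1.62 FPKM (SD, n = 3 each), a log2 fold change of -0.92 (SE 0.073, adjusted p = 4.9e-05). The gene (ENSG00000107331) lies at chr9:139901686-139931234 (hg19). Within 5 Mb of it 74 other genes were tested, with a median log2 fold change of -0.09, 6 of them higher and 28 lower in OVER43 cells. Over all tested genes 28.4% were higher and 17.5% lower, so these neighbours were called lower more often. Over chromosome 9 the median was -0.20.

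The deposited transcript table resolved ABCA2 further. Of 514 transcript entries of all members 49 were tested, and 7 were higher and 1 lower in OVER43 cells by the same test, where 14.6% of all tested transcripts were called in either direction. The 1 that was lower was ENST00000341511, the protein-coding transcript with the highest level in ABCA2. It had 4.91, 7.20 and 6.37 FPKM in OVER43 libraries and 15.0, 15.5 and 15.5 FPKM in EV libraries, with no overlap and a log2 fold change of -1.20 (SE 0.127, adjusted p = 0.00362). Another transcript, ENST00000371605, had 4.94 ± 1.40 FPKM in OVER43 and 6.34 ± 1.35 FPKM in EV libraries (SD, n = 3 each), with overlapping groups and an adjusted p of 0.401. Of the gene's FPKM, ENST00000341511 took 41.0% in OVER43 and 52.2% in EV libraries, and ENST00000371605 took 32.8% in OVER43 and 21.6% in EV libraries. Whether the transcripts differed from each other in their change was not tested, and a program's division of reads between overlapping transcripts is itself an estimate.

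**Figure D3:**
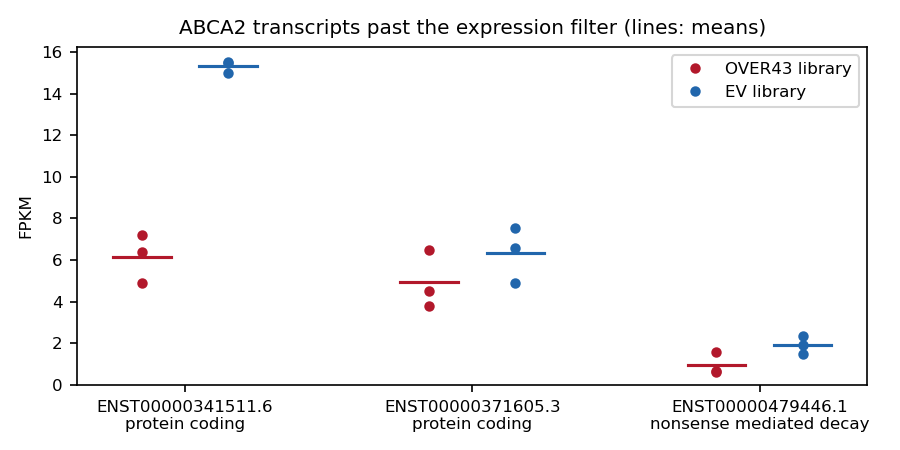
FPKM per library of the 3 tested ABCA2 transcripts, OVER43 left of EV, with a line at each group's mean. ENST00000341511 lies between 4.91 and 7.20 in OVER43 and between 15.0 and 15.5 in EV, while the groups of ENST00000371605 and ENST00000479446 overlap.

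The transcript table also lists an entry that spans the whole of each gene with its introns. For ABCA2 this entry was 0.0741 ± 0.00667 FPKM in OVER43 and 0.165 ± 0.0229 FPKM in EV libraries (SD, n = 3 each), again without overlap and lower in OVER43. For ABCF2 it was 0.426 ± 0.0344 FPKM in OVER43 and 0.446 ± 0.0232 FPKM in EV libraries, where the gene itself was higher in OVER43 cells. Over the 20 tested members the whole-gene entries reached 0.446 FPKM at most as a group mean and 0% to 5.99% of their gene. The groups did not overlap in 7 of the 20, where 43.5% of the whole-gene entries of all tested genes did not overlap.

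ABCA3, which loads lipid into the lamellar bodies of lung cells, had 23.5, 24.1 and 24.5 FPKM in OVER43 libraries, against 18.6, 18.1 and 19.3 FPKM in EV libraries. The OVER43 libraries were all above the EV libraries, and the log2 fold change was 0.35 (SE 0.050, adjusted p = 0.000805). Its pseudogene neighbour ABCA17P, on the opposite strand, was at 0.544 FPKM in OVER43 libraries and 0.552 FPKM in EV libraries. Whether reads were counted by strand is not stated in the sources used here, so reads of overlapping opposite genes cannot be told apart. ABCA7, a phospholipid transporter known for its link to Alzheimer's disease, averaged 3.30 FPKM in OVER43 and 3.89 FPKM in EV libraries and was not called (log2 fold change -0.18, adjusted p = 0.165). Under 1 alternative way of processing ABCA7 was called lower. ABCA5, a lysosomal member, averaged 2.89 FPKM in OVER43 and 2.41 FPKM in EV libraries and was not called either (0.18, adjusted p = 0.260).

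Both tested members of subfamily G were called lower, at levels near the filter. ABCG2, a drug and urate efflux pump, had 0.627, 1.56 and 1.26 FPKM in OVER43 libraries, against 1.89, 2.38 and 1.89 FPKM in EV libraries. The groups did not overlap, though the OVER43 libraries spread more than the gap between the groups, and the log2 fold change was -0.53 (SE 0.178, adjusted p = 0.0398). The approximate fragments were 109, 193 and 122 in OVER43 libraries and 272, 215 and 240 in EV libraries. They did not follow the FPKM in order: EV library 1 was highest in FPKM and lowest in fragments among the EV libraries. The FPKM of ABCG2 thus also depended on how reads were divided between transcripts of different length. ABCG4, a sterol transporter best known from brain, had 1.02, 0.849 and 0.925 FPKM in OVER43 libraries, against 1.96, 1.38 and 1.52 FPKM in EV libraries. Here too the groups were apart, and the log2 fold change was -0.43 (SE 0.128, adjusted p = 0.0239). Its fragments could not be estimated, since its main transcript has no length in the annotation used. Both calls were fragile: with quantile rescaling the adjusted p was 0.0829 for ABCG2 and 0.0729 for ABCG4. Without the filter on low values it was 0.192 for ABCG2 and 0.0669 for ABCG4. The ABCG2 call was lost under 8 alternatives and the ABCG4 call under 5. Leaving out 1 library took the ABCG2 value to between 0.0659 and 0.117 for 5 of the 6 libraries. For ABCG4 it came to 0.0699 without OVER43 library 1, 0.0578 without OVER43 library 2 and 0.0766 without EV library 0. The other G members stayed below 0.1 FPKM in every library, including ABCG1, which exports sterol to lipoprotein particles, and ABCG5 and ABCG8, which form the intestinal and biliary sterol pump.

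ABCA1, which exports cholesterol and phospholipid to apolipoprotein A-I, was below the filter and is named here after its values were seen. It had 0.0324, 0.0490 and 0.0297 FPKM in OVER43 libraries, against 0.523, 0.282 and 0.458 FPKM in EV libraries. All EV libraries were above all OVER43 libraries, and the EV mean was 11.4 times the OVER43 mean (0.0370 ± 0.0105 FPKM in OVER43, 0.421 ± 0.124 FPKM in EV; SD, n = 3 each). These values correspond to about 16, 24 and 14 fragments in OVER43 libraries and about 170, 98 and 173 fragments in EV libraries. Without the filter, where 12.5% of all genes tested were called, ABCA1 had a log2 fold change of -0.45 and an adjusted p of 0.0273. Of the 23 tested genes within 5 Mb of ABCA1 on chromosome 9, 22 were lower in OVER43 cells and 0 were higher, with a median log2 fold change of -0.40 (17.5% of all tested genes were lower). These neighbours passed the filter, while the scale understates the change of ABCA1 at its low FPKM. The -0.45 and the -0.40 are therefore not like measures. A part of the neighbourhood in the ABCA1 difference was not tested.

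**Figure D4:**
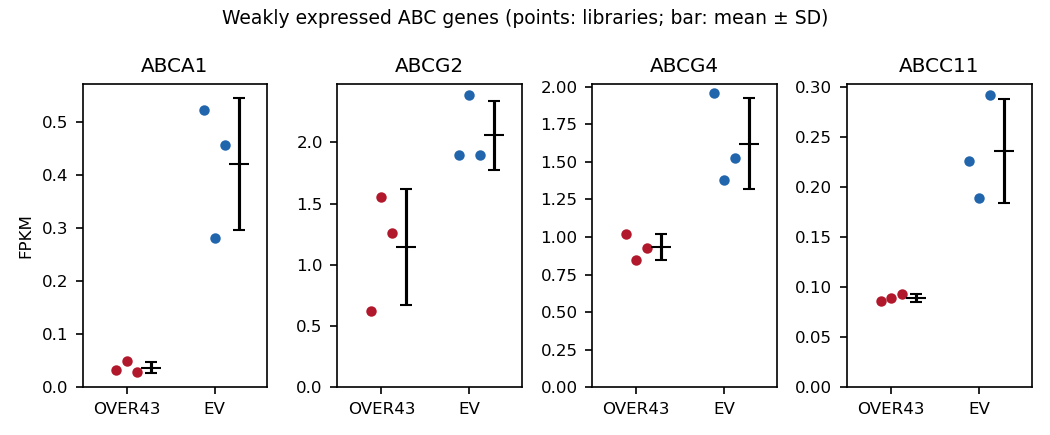
FPKM per library (points) with mean and SD (bars) of ABCA1, ABCG2, ABCG4 and ABCC11, OVER43 left of EV. ABCA1 lies between 0.0297 and 0.0490 in OVER43 and between 0.282 and 0.523 in EV. The groups overlap in none of the 4 genes, where 56.3% of all tested genes did not overlap. That share covers genes past the filter, as ABCG2 and ABCG4 were, and is no background for ABCA1 and ABCC11, which were below it. ABCA1 and ABCC11 were picked after their values were seen. ABCC2, also weak and apart but higher in OVER43, is not drawn.

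None of the 5 tested members of subfamily B was called. ABCB10, a mitochondrial inner membrane transporter needed for haem synthesis, came nearest, with 13.6, 12.3 and 11.9 FPKM in OVER43 libraries, against 10.5, 9.90 and 11.6 FPKM in EV libraries. The groups were just apart, and the log2 fold change of 0.22 had an adjusted p of 0.0502. It was under the threshold when the filter was raised to 5 FPKM (0.0426) and without EV library 2 (0.0299). ABCB8, another mitochondrial member, had a log2 fold change of -0.05 (adjusted p = 0.591), and ABCB6, a porphyrin transporter, had 0.01 (adjusted p = 0.922). ABCB9, a lysosomal peptide transporter, had a log2 fold change of 0.09 (adjusted p = 0.438), and it shares its locus with OGFOD2 and ARL6IP4 on the opposite strand. ABCB1, the P-glycoprotein drug pump, reached 0.0473 FPKM at most in an OVER43 library and was listed at 0 in all EV libraries. The peptide transporters of antigen presentation, TAP1 and TAP2, belong to the same subfamily under other names. TAP1 was at 0.0251 ± 0.0128 FPKM in OVER43 libraries and 0.0266 ± 0.0115 FPKM in EV libraries (SD, n = 3 each), and TAP2 was listed at 0 in all 6.

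None of the 4 tested members of subfamily C was called. ABCC1, the multidrug resistance protein MRP1, had 20.7, 18.6 and 18.4 FPKM in OVER43 libraries, against 18.7, 20.1 and 18.0 FPKM in EV libraries. The groups overlapped, the log2 fold change was 0.02 (SE 0.066, adjusted p = 0.826), and its sign changed with the scaling. ABCC4, an exporter of cyclic nucleotides and prostaglandins, averaged 9.15 FPKM in OVER43 and 9.78 FPKM in EV libraries, with all OVER43 libraries lower. Its log2 fold change of -0.09 was not called (adjusted p = 0.260), but was -0.22 and called when libraries were set to equal FPKM sums (adjusted p = 0.0204). ABCC5, another exporter of cyclic nucleotides, averaged 11.0 FPKM in OVER43 and 9.49 FPKM in EV libraries, also apart and not called (0.20, adjusted p = 0.0659). ABCC10, an organic anion and drug pump, averaged 6.35 FPKM in OVER43 and 5.61 FPKM in EV libraries, again apart and not called (0.15, adjusted p = 0.137).

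Several C members were at trace levels. ABCC2, the canalicular anion pump, had 0.191, 0.173 and 0.193 FPKM in OVER43 libraries and 0.127, 0.162 and 0.121 FPKM in EV libraries, and ABCC11 had 0.0859, 0.0887 and 0.0931 FPKM in OVER43 libraries and 0.226, 0.189 and 0.292 FPKM in EV libraries. Neither pair of groups overlapped, and without the filter neither was called (adjusted p = 0.454 for ABCC2 and 0.0769 for ABCC11). Beside ABCC11, LONP2 on the opposite strand was at 26.4 FPKM in OVER43 libraries and 24.6 FPKM in EV libraries. CFTR reached 0.0714 FPKM at most, in an OVER43 library. ABCC6 is deposited under a joint symbol, so the rule did not take it as a member: it averaged 1.40 ± 0.357 FPKM in OVER43 and 1.31 ± 0.123 FPKM in EV libraries (SD, n = 3 each; adjusted p = 0.815).

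Both tested members of subfamily D were higher. ABCD3, also called PMP70, brings branched-chain and dicarboxylic acyl-CoA into peroxisomes. It had 34.9, 35.0 and 34.5 FPKM in OVER43 libraries, against 29.3, 28.7 and 28.7 FPKM in EV libraries. Libraries of a group lay within 1 FPKM of each other, and the log2 fold change was 0.26 (SE 0.040, adjusted p = 0.00125). ABCD4, which moves vitamin B12 out of lysosomes, had 26.4, 23.3 and 24.2 FPKM in OVER43 libraries, against 19.9, 17.5 and 19.4 FPKM in EV libraries. All OVER43 libraries were above all EV libraries, and the log2 fold change was 0.36 (SE 0.068, adjusted p = 0.00326). ABCD4 lies on chromosome 14, where the 75 tested genes within 5 Mb had a median log2 fold change of 0.42, 50 of them higher and 3 lower in OVER43 cells (28.4% and 17.5% of all tested genes were). The value of ABCD4 was no larger than that of its neighbours. Its called transcript was ENST00000481935, annotated as a target of nonsense-mediated decay, at 4.74 ± 0.804 FPKM in OVER43 libraries and 2.63 ± 0.366 FPKM in EV libraries (SD, n = 3 each; adjusted p = 0.0357), a call lost whichever 1 library was left out (adjusted p 0.0569 to 0.103). ABCD2, a peroxisomal transporter of very long-chain acyl-CoA, reached 0.0745 FPKM at most.

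ABCE1, which splits ribosomes after termination, had the largest increase among the members that passed the filter. It had 81.0, 83.7 and 78.8 FPKM in OVER43 libraries, against 61.7, 58.7 and 55.7 FPKM in EV libraries. The lowest OVER43 library was well above the highest EV library, and the log2 fold change was 0.46 (SE 0.047, adjusted p = 0.000151). Its main protein-coding transcript, ENST00000296577, went with it, at 69.2 ± 0.874 FPKM in OVER43 libraries and 51.1 ± 1.91 FPKM in EV libraries (SD, n = 3 each; adjusted p = 0.00184). Genes on the opposite strand that overlap ABCE1 had other values, ANAPC10 with 13.4 FPKM in OVER43 and 15.3 FPKM in EV libraries and OTUD4 with 27.4 FPKM in OVER43 and 26.3 FPKM in EV libraries. The median of 15 tested genes within 5 Mb was 0.05.

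ABCF2 and ABCF3 are relatives of the yeast translation factor GCN20. ABCF2 had 93.0, 85.9 and 87.9 FPKM in OVER43 libraries, against 69.8, 68.3 and 66.5 FPKM in EV libraries. The groups were apart by more than the spread of either, and the log2 fold change was 0.38 (SE 0.041, adjusted p = 0.000218). Its transcripts ENST00000287844 (62.3 FPKM in OVER43, 52.3 FPKM in EV) and ENST00000468073 (4.97 FPKM in OVER43, 2.95 FPKM in EV) were both called, with adjusted p of 0.0412 and 0.0366. Neither call held with TMM scaling (0.0843 and 0.0517), equal sums (0.221 and 0.0721), no filter (0.189 and 0.141) or the replicate block (0.133 and 0.093). The ENST00000287844 call was also lost with quantile scaling (0.35) and whichever 1 library was left out (0.0666 to 0.11). The ENST00000468073 call held with quantile scaling (0.0485) and without OVER43 library 1 (0.0386). ABCF3 had 21.9, 23.4 and 23.0 FPKM in OVER43 libraries, against 17.8, 17.0 and 18.4 FPKM in EV libraries. It too was apart in all libraries, with a log2 fold change of 0.34 (SE 0.054, adjusted p = 0.00135). Among tested genes within 5 Mb the median was 0.12 for ABCF2 and 0.08 for ABCF3.

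ABCF1, which binds the initiation factor eIF2, could not be followed. Its 7 entries, 1 on chromosome 6 and 6 on alternative sequences of the MHC region, reached 0.00335 FPKM at most, and 3 of them were listed at 0 throughout. Of 163 coding genes of chromosome 6 with such alternative copies, 5 passed the filter (3.1%), against 448 of 831 others on that chromosome (53.9%). The values of TAP1 and TAP2, which lie in the same region, are to be read beside this. Beyond ABCF1, 25 symbols were below the filter. Of these, 20 never reached 0.1 FPKM, and ABCC13 was among those listed at 0 in all 6 libraries, where a missing estimate cannot be told apart from no expression.

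Genes that work with ABC members were counted in 8 lists of 102 genes in all, of which 90 were tested, 33 were higher and 15 lower in OVER43 cells (53.3% called, against 45.9% of all tested genes). Among partners of ABCE1 and the F members in ribosome recycling and the GCN response, 9 of 13 tested were higher and 0 lower, a median log2 fold change of 0.19 (0.05 over all genes). Under other scalings these counts were 5 higher and 1 lower with TMM, 3 and 1 with quantile, and 4 and 1 with equal sums. EIF2S1, the eIF2 alpha subunit, averaged 316 ± 5.86 FPKM in OVER43 and 195 ± 8.36 FPKM in EV libraries (SD, n = 3 each; log2 fold change 0.69, adjusted p = 7.27e-06). NEMF, which marks stalled ribosomes, averaged 26.7 FPKM in OVER43 and 17.9 FPKM in EV libraries (0.55, adjusted p = 0.000419). Both lie on chromosome 14, where their neighbours within 5 Mb had medians of 0.37 and 0.44. ETF1, the release factor that precedes ABCE1, averaged 92.8 FPKM in OVER43 and 84.2 FPKM in EV libraries (0.14, adjusted p = 0.0132), and MCTS1, a recycling factor of the small subunit, averaged 21.7 FPKM in OVER43 and 19.5 FPKM in EV libraries (0.15, adjusted p = 0.0473). Neither of these calls held under TMM, quantile or equal-sum scaling. The sign of ETF1 turned with quantile scaling (-0.050) and equal sums (-0.002). The MCTS1 call was lost under 10 of 13 alternatives, also without a filter (0.0915), with the replicate block (0.0746) and without OVER43 library 2 (0.13).

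Of 14 tested factors known to regulate ABC genes, 5 were higher and 3 lower, against 4 and 4 with TMM and 3 and 5 with equal sums. RXRA, the partner of the oxysterol receptors, had 14.8, 15.1 and 17.5 FPKM in OVER43 libraries, against 22.8, 21.4 and 22.0 FPKM in EV libraries, with no overlap (log2 fold change -0.46, adjusted p = 0.00121). RXRA lies on chromosome 9, where its neighbours within 5 Mb had a median of -0.15. NR1H3, the oxysterol receptor LXR alpha, averaged 1.82 ± 0.242 FPKM in OVER43 and 2.58 ± 0.229 FPKM in EV libraries (SD, n = 3 each; -0.34, adjusted p = 0.0354), a call lost under 6 of 12 alternatives, 4 of them without 1 library (OVER43 library 0, 0.115; OVER43 library 2, 0.063; EV library 1, 0.107; EV library 2, 0.077). KEAP1, which holds down the stress factor NRF2, averaged 48.2 FPKM in OVER43 and 35.4 FPKM in EV libraries (0.44, adjusted p = 0.000554), and YBX1, an RNA-binding protein linked to ABCB1, averaged 933 FPKM in OVER43 and 589 FPKM in EV libraries (0.66, adjusted p = 1.41e-05).

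In sterol handling around ABCA1 and ABCG1, 5 of 13 tested genes were higher and 2 lower, against 3 and 3 with equal sums. PLTP, which moves phospholipid between lipoproteins, had 1.46, 1.54 and 1.03 FPKM in OVER43 libraries, against 3.35, 2.84 and 3.44 FPKM in EV libraries, with no overlap (log2 fold change -0.85, adjusted p = 0.000955). MYLIP, a ligase for the LDL receptor, averaged 3.46 FPKM in OVER43 and 4.99 FPKM in EV libraries (-0.43, adjusted p = 0.0147). NPC2, which hands cholesterol out of lysosomes, averaged 101.8 FPKM in OVER43 and 60.0 FPKM in EV libraries (0.75, adjusted p = 2.8e-05), and its chromosome 14 neighbours had a median of 0.41. APOC1, an apolipoprotein, averaged 41.9 ± 6.75 FPKM in OVER43 and 22.3 ± 8.14 FPKM in EV libraries (SD, n = 3 each; 0.93, adjusted p = 0.0404), a call that 9 of 13 alternatives lost.

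Around the mitochondrial B members, 8 of 17 tested genes of haem and iron-sulphur synthesis were higher and 3 lower, against 6 and 5 with quantile scaling and 6 and 6 with equal sums. GLRX5, an iron-sulphur cluster carrier, averaged 61.3 FPKM in OVER43 and 38.3 FPKM in EV libraries (log2 fold change 0.67, adjusted p = 4.14e-05), and its chromosome 14 neighbours had a median of 0.52. ALAD, an early enzyme of haem synthesis on chromosome 9, had 5.12, 5.05 and 4.40 FPKM in OVER43 libraries, against 9.02, 10.6 and 9.73 FPKM in EV libraries (-0.88, adjusted p = 0.00013), with a median of -0.45 among its neighbours. PPOX, a late enzyme of the same pathway, averaged 6.11 FPKM in OVER43 and 8.29 FPKM in EV libraries (-0.38, adjusted p = 0.0128). Genes of this list thus moved in both directions.

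In the peroxisome list around ABCD3, 3 of 15 tested genes were higher and 2 lower, against 1 and 2 with quantile scaling and 1 and 4 with equal sums. PEX10, an import factor, was at 14.7 FPKM in OVER43 libraries and 10.8 FPKM in EV libraries (log2 fold change 0.41, adjusted p = 0.000824). PEX5, the import receptor, averaged 44.4 FPKM in OVER43 and 52.1 FPKM in EV libraries (-0.22, adjusted p = 0.00779), close to the median of -0.21 of its neighbours. PEX2, another import factor, averaged 26.8 FPKM in OVER43 and 22.1 FPKM in EV libraries (0.27, adjusted p = 0.0188), a call lost under 5 of 13 alternatives (equal sums 0.184, without OVER43 library 0 0.0599, without OVER43 library 2 0.0602). HSD17B4, a beta-oxidation enzyme, averaged 50.9 FPKM in OVER43 and 63.2 FPKM in EV libraries with overlapping groups (-0.31, adjusted p = 0.0438), a call lost under 6 of 13 alternatives, 4 of them without 1 library (OVER43 library 0, 0.0918; OVER43 library 1, 0.11; EV library 0, 0.123; EV library 1, 0.129). In the vitamin B12 list around ABCD4, 1 of 8 was higher and 1 lower, against 0 and 2 with equal sums. LMBRD1, the lysosomal partner of ABCD4, averaged 12.1 ± 0.585 FPKM in OVER43 and 14.9 ± 0.652 FPKM in EV libraries (SD, n = 3 each; -0.29, adjusted p = 0.00651), opposite in sign to ABCD4. MMAB, which makes the cofactor form adenosylcobalamin, averaged 16.3 FPKM in OVER43 and 13.3 FPKM in EV libraries (0.28, adjusted p = 0.00946).

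Glutathione is the conjugate or co-substrate of several C pumps, and 1 of 7 tested genes of its supply was higher and 3 lower. GGT1, which breaks glutathione down outside the cell, had 0.618, 0.774 and 0.615 FPKM in OVER43 libraries, against 2.33, 2.15 and 2.55 FPKM in EV libraries, far apart (log2 fold change -1.0, adjusted p = 0.000266). SLC7A11, the cystine importer, averaged 1.16 FPKM in OVER43 and 2.17 FPKM in EV libraries (-0.56, adjusted p = 0.00322), and GCLC, of the enzyme that starts glutathione synthesis, averaged 14.2 FPKM in OVER43 and 18.3 FPKM in EV libraries (-0.36, adjusted p = 0.0166). GSS, the enzyme of the last step, was higher, at 65.1 FPKM in OVER43 libraries and 49.7 FPKM in EV libraries (0.38, adjusted p = 0.000194). Of the channel partners of ABCC8, ABCC9 and CFTR, whose own levels were near 0, 1 of 3 tested was higher and 1 lower. NHERF1, a scaffold for CFTR, averaged 38.3 FPKM in OVER43 and 31.6 FPKM in EV libraries (0.27, adjusted p = 0.00952), and KCNJ11, the pore of the ATP-sensitive potassium channel, averaged 2.61 FPKM in OVER43 and 4.11 FPKM in EV libraries (-0.48, adjusted p = 0.0369), a call that 8 of 12 alternatives lost.

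Further partner calls ended under 1 or more alternatives. Without the filter on low values, the adjusted p was 0.087 for MYLIP, 0.0568 for PEX5, 0.0834 for PPOX, 0.0508 for MMAB, 0.125 for GCLC and 0.0795 for NHERF1. With equal FPKM sums it was 0.103 for MMAB and 0.111 for NHERF1, and with quantile scaling 0.0575 for NHERF1. The GCLC call was also lost without OVER43 library 0 (0.0541), OVER43 library 2 (0.0544) or EV library 1 (0.0565).

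**Figure D5:**
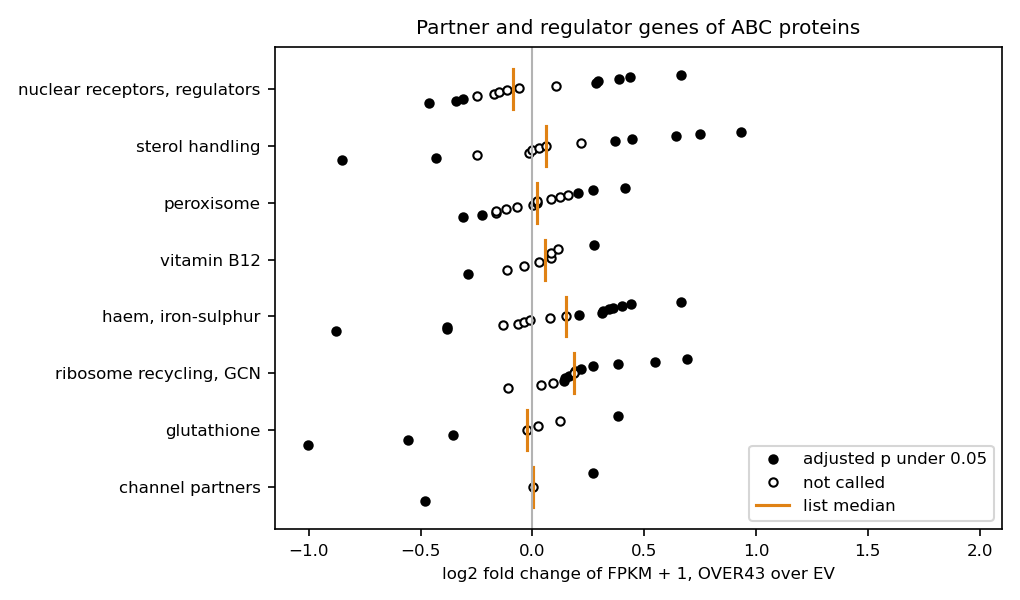
Log2 fold change of OVER43 over EV (horizontal axis, log2(FPKM + 1) scale) of the 90 tested genes of the 8 partner lists, filled where called, with a bar at each list's median. The ribosome recycling list has 9 called genes, all higher as deposited, though 1 was lower under each other scaling, and every other list holds called genes on both sides of 0.

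The authors' deposited table tested 22 member entries and marked 7 of them significant, where it marked 21.3% of all genes it tested. In the authors' deposited table the 7 were ABCA1, ABCA2, ABCA3, ABCD4, ABCE1, ABCF2 and ABCG4. Thus 6 of the 9 members called here were marked in the authors' deposited table and 3 were not, ABCD3 (q = 0.0538), ABCG2 (q = 0.221) and ABCF3 (q = 0.728). ABCA1, not tested here because of the filter, had q = 0.000547 and a log2 value of 3.51 in the authors' deposited table, where the ratio is EV over OVER43.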

How the data were processed

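TruSeq libraries of poly(A) RNA were sequenced, per the labels' protocols. The authors deposited FPKM for each library, by gene and by transcript, which Cuffdiff computed and scaled, per the submitters' processing notes. The deposited log2 fold change (EV over OVER43, per the file headers), test statistic (a score), p-values and q-values are the authors' own. Neither aligner nor strandedness is stated in the sources used here. The submitters' processing notes name hg38, but of 52523 gene IDs found in GENCODE 29 on GRCh38, 496 have a start or end in common with it. Gene positions are therefore given as hg19, and a deposited locus can hold several overlapping genes.

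Columns carry the numbers 0 to 2 and were matched to groups, not to single samples. The 19 genes for which the program made no estimate were left out. The filter asked for 1 FPKM in 3 or more of 6 libraries. The test was limma 3.58.1 under R 4.3.3, robust and with a trend, two-sided, on log2(FPKM + 1), comparing the groups with no other term. The threshold was a Benjamini-Hochberg adjusted p under 0.05, for genes and, in a separate fit, for transcripts. The script was checked on simulated data. Fragments of a gene were approximated from transcript FPKM, GENCODE 29 length and depth, unless transcripts without a length held over 5% of its FPKM. In the low values used for depth, 100% lay within 0.1 of a whole number. Alternatives were other scalings, filters and pseudocounts, a replicate block, and leaving out each library. Values per library are given for called members. Per partner list, up to the 2 highest and 2 lowest called genes are named. ABCA1, ABCC2 and ABCC11 were added after their values were seen. Some genes enter the counts and are not reported here by name. The members and lists were chosen with earlier results of these data known.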

Additional observations from a re-analysis of the deposited data

How the results depend on the processing

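The calls of ABCA2, ABCA3, ABCD3, ABCD4, ABCE1, ABCF2 and ABCF3 held under all 13 alternatives, and the count of 6 higher members stayed within 1.5 times. The count of 3 lower members was 1 with quantile scaling and with the filter at 5 FPKM, 5 with equal FPKM sums, and 1 to 2 when a library was left out, 1 without OVER43 library 2 and 1 without EV library 0. Without a filter the count was 2, ABCA1 and ABCA2, and with a pseudocount of 0.1 it was 2. The 33 higher and 15 lower partner genes were 20 higher with quantile scaling, 18 higher and 26 lower with equal sums, 20 higher and 7 lower without a filter, and 9 lower with the filter at 5 FPKM. The 7 higher member transcripts were 3 with TMM and quantile scaling, 1 with equal sums, without a filter and with the replicate block, and 2 to 5 when a library was left out; the 1 lower transcript became 2 with equal sums. Of members not called, the sign of the log2 fold change reversed for ABCB6 (-0.036 with TMM, -0.12 with equal sums, -0.045 to 0.040 when a library was left out, below 0 without OVER43 library 1 or EV library 2), ABCB9 (-0.032 with equal sums) and ABCC1 (-0.030 with TMM, -0.047 with quantile, -0.12 with equal sums, -0.032 to 0.0605 when a library was left out, below 0 without OVER43 library 0 or EV library 2). The cause was not tested. Over all genes, 61.8% of calls were higher as deposited, 52.5% with TMM, 51.2% with quantile scaling and 34.4% with equal sums, which took the median of all genes from 0.05 to -0.08. Same-numbered libraries did not deviate together (correlations 0.0166, -0.0909 and 0.0285). This gives no sign of a pairing by number, but cannot exclude that same-numbered libraries were handled together. With the replicate block 5316 genes were called instead of 5600, and 6 members higher and 3 lower. Fragment numbers limit what can be said of members near or below the filter.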
